A study of Mus musculus with 4 samples.

Results

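The subunits of the mitochondrial respiratory chain and of ATP synthase that are encoded in the nucleus were followed, complex by complex, in injured mouse abdominal aorta. Members were found by gene name on the array: Nduf genes for complex I, Sdha to Sdhd for complex II, Uqcr genes and Cyc1 for complex III, Cox4i to Cox8 genes for complex IV and Atp5 genes for complex V. The names Cox7a1 and Cox8b were left out of the rule. In all 83 of 37074 gene names matched, and 81 of them were among the 22498 genes bright enough to test: 37 in complex I, 4 in complex II, 9 in complex III, 13 in complex IV and 18 in complex V. Cox7b2 and Cox8c, isoforms known from testis, were not well above background on any array and were not tested. The choice by name also takes in Atp5s and Atp5sl, which RefSeq now calls Dmac2l and Dmac2, and the pseudogene Atp5c1-ps.

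RNA was taken from male mice, 12 weeks old, 4 weeks after application of CaPO4, a salt used to injure the aortic wall. One group was wild type, and the other was SR-A1-/-, which lacks the macrophage scavenger receptor encoded by Msr1. Each group had 2 one-colour arrays and both groups had received CaPO4, so no uninjured aorta enters. The labels do not name the allele, and whether the arrays came from separate animals is not stated. The p-values therefore reflect the spread among these 4 samples, which may be technical.

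All values are log2 processed signal relative to the array's 75th percentile, and a difference is the mean of the arrays labelled knockout minus the mean of the wild type arrays, ± the standard error of limma with 2 arrays a group. The 75th percentile of the signal was 132 and 220 on wild type arrays 1 and 2, and 245 and 133 on knockout arrays 1 and 2, so each group held an array of lower and an array of higher signal. All 4 came from 1 slide and 1 scan time. Msr1 read -5.30 and -2.10 on the wild type arrays and -1.26 and -2.09 on the knockout arrays, a difference of 2.03 ± 1.09 (adjusted p 0.965 in limma). It was not well above background on wild type array 1, on which the size of that difference rests, and it was detected on both knockout arrays. Msr1 thus did not bear out the labels, and every direction here is that of the labels. All 13 smooth muscle markers, the genes that define the labelled tissue, were well above background on the 4 arrays.

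Electrons from NADH enter the respiratory chain at complex I and those from succinate at complex II, and both pass through ubiquinone to complex III, through cytochrome c to complex IV, and so to oxygen. Complexes I, III and IV pump protons across the inner mitochondrial membrane, and complex V lets them back through to make ATP. Most subunits are nuclear genes, a small core is made from mitochondrial DNA, and several complex IV subunits have isoforms restricted to muscle, brown fat, lung or testis. In the aorta these genes are active in smooth muscle, in the endothelium and in the fat around the vessel, and brown fat is especially rich in them.

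The nuclear subunits moved up and down together over the 4 arrays. Wild type array 2 had the highest value in 72 of the 81 members, and knockout array 2 had the lowest in 77. The complete order, wild type 2 above knockout 1 above wild type 1 above knockout 2, was found in 66 of the 81, against 10.9% of all tested genes. Centred on each gene's own mean, the members' median was -0.21 and 0.68 on wild type arrays 1 and 2, and 0.20 and -0.73 on knockout arrays 1 and 2. The median distance from the lowest to the highest array was 1.49, which is 2.81-fold, beside 0.76, or 1.69-fold, over all tested genes.

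Because that order places a knockout array between both wild type arrays, the groups overlapped for most subunits. The difference was below 0 in 78 of 81 members, against 50.7% of all genes, and its median was -0.52 against -0.0058. No member passed an adjusted p of 0.05 in limma with Benjamini-Hochberg adjustment over all 22498 genes, which called 0% of them, and 1 member, Cox6a2, had an unadjusted p under 0.05 on the lower side, where 2.45% of all genes stood. On the higher side 0 members had one, against 3.84% of all genes. Groups did not overlap in 7 members that were lower on the knockout arrays, against 13.7% of all genes, and in 1 that was higher, against 16.1%. The median rests on wild type array 2 and knockout array 2: it was -0.040 without the former and -0.062 without the latter, and -0.97 and -0.98 without wild type array 1 and knockout array 1.

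Compared within a level of signal, the knockout array was lower in nearly all members at both levels. Knockout 1 against wild type 2, the pair of higher signal, gave a median of -0.56, and knockout 2 against wild type 1, the pair of lower signal, gave -0.48. A lower value on the knockout array at both levels was found in 73 of 81 members, against 31% of all genes, and a higher value at both in 2, against 28.9%. With signal level as a block, 33 members had an unadjusted p under 0.05 on the lower side, where 6.18% of all genes stood, and 0 on the higher side, where 6.33% stood. The lowest adjusted p of a member in that fit was 0.275, for Ndufb8. The levels were read from the arrays and the labels do not give them as a batch, so these pairs are a description of the arrays. The arrays of higher signal were also the only ones on which Ucp1, a brown fat gene, was well above background. Signal level and brown fat content therefore cannot be told apart in this block.

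**Figure D1:**
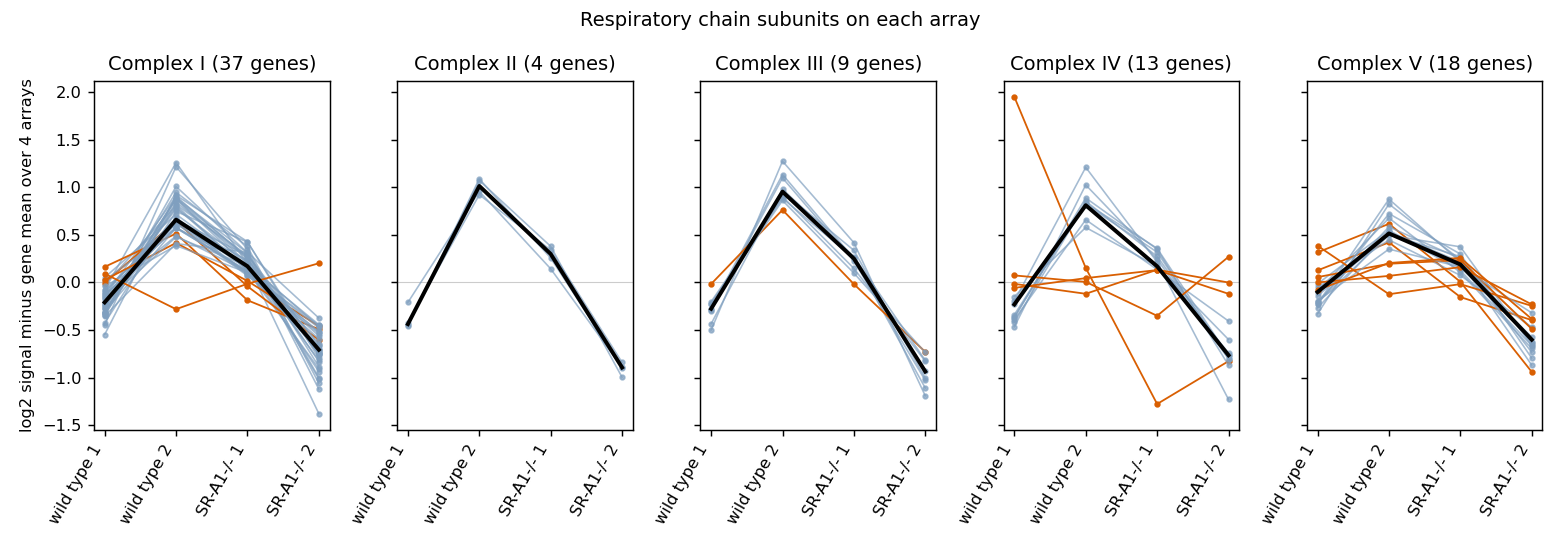
Log2 signal of each tested subunit, centred on its own mean over the 4 arrays (vertical axis), by array (horizontal axis), with a panel for each complex, a black line for the median and thin lines for members, blue in the common order and orange in any other (SR-A1-/- stands for the arrays labelled knockout). In every complex the median was highest on wild type array 2 and lowest on knockout array 2.

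Complex I, which oxidises NADH, had 36 of 37 members with a difference below 0 and a median of -0.54. Its 8 subunits of the NADH-binding module had a median of -0.54 and the 7 of the quinone-binding module -0.44. The 22 others, with Ndufa4 and Ndufa4l2 placed there by name only, had a median of -0.56. These 3 parts of the list thus lay close together, and 33 of the 37 members had the common array order.

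Ndufb8, an accessory subunit of the membrane arm, read 5.26 and 6.60 on the wild type arrays and 5.54 and 3.96 on the knockout arrays. Its difference of -1.18 ± 0.71 was the lowest in complex I for the brightest probe of each gene, yet knockout array 1 was above wild type array 1 and the groups overlapped (adjusted p 1.0 in limma). Its other probe differed by -0.16, and the mean of its probes by -0.67, less than Ndufc1. Ndufc1, another small membrane subunit, followed with 4.82 and 5.66 against 4.97 and 3.94, a difference of -0.78 ± 0.50.

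Core subunits that carry electrons had values like those of the accessory ones. Ndufs1, which holds iron-sulphur clusters of the NADH module, read 3.55 and 4.74 against 4.14 and 3.14, a difference of -0.50 ± 0.56. Ndufs8, which holds further clusters on the way to ubiquinone, read 4.47 and 5.37 against 4.80 and 4.19, a difference of -0.42 ± 0.44. In both genes wild type array 2 was highest and knockout array 1 came next.

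Only 3 of the 37 complex I genes had groups that did not overlap, all lower on the knockout arrays, against 13.7% of all genes. Ndufv1, which binds NADH and the flavin, read 5.33 and 5.97 on the wild type arrays against 5.29 and 4.72, a difference of -0.64 ± 0.38. Ndufs7, next to the ubiquinone site, read 5.34 and 5.73 against 5.33 and 4.85, a difference of -0.44 ± 0.33. For both, knockout array 1 lay just under wild type array 1. Ndufa11, an accessory membrane subunit, was set further apart, at 2.89 and 3.24 against 2.53 and 2.23, and its difference of -0.68 ± 0.31 had an adjusted p of 0.878 in limma.

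At the other end, Ndufa7 read 4.85 and 5.61 against 5.52 and 4.83, so that each signal level had nearly the same value in both groups, and its difference of -0.056 ± 0.42 turned to 0.067 under quantile normalisation. Ndufa4l2, counted here by its name, was the only complex I member with a difference above 0 and is described with the isoforms.

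All 4 genes of complex II, succinate dehydrogenase, which also belongs to the citric acid cycle, had the common order. Sdha, the flavoprotein that binds succinate, read 3.45 and 4.80 against 4.22 and 3.04, a difference of -0.50 ± 0.63. Its 4 tested probes differed by -0.68 to 0.31, with 3 of them below 0. Sdhb, with its iron-sulphur clusters, read 4.71 and 6.24 against 5.55 and 4.17, a difference of -0.62 ± 0.71. These catalytic subunits spread widely over the arrays, and in both the knockout array of higher signal exceeded the wild type array of lower signal. The membrane anchors did the same: Sdhc read 2.93 and 4.10 against 3.28 and 2.25, a difference of -0.75 ± 0.57, and Sdhd read 3.23 and 4.77 against 3.94 and 2.78, a difference of -0.64 ± 0.67. The median range over the arrays was 1.92, the widest of the 5 complexes.

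Complex III had the lowest median difference of the 5, -0.68, and all 9 of its members were below 0 at both signal levels. Cyc1, the cytochrome c1 that hands electrons to cytochrome c, read 4.60 and 6.01 against 5.13 and 3.77, a difference of -0.86 ± 0.68. Uqcrq, a small subunit beside cytochrome b, read 5.85 and 7.25 against 6.37 and 5.12, a difference of -0.80 ± 0.66. Uqcrfs1, the Rieske iron-sulphur protein, had one of the widest ranges, at 2.86 and 4.64 against 3.78 and 2.17, a difference of -0.77 ± 0.81. In all 3 the order was the common one and the standard error was near the size of the difference.

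The core proteins Uqcrc1 and Uqcrc2, which form the matrix part of complex III, followed the same course. Uqcrc1 read 4.62 and 5.71 against 4.95 and 4.11, a difference of -0.64 ± 0.51, and Uqcrc2 read 4.03 and 5.44 against 4.74 and 3.64, a difference of -0.55 ± 0.63. Uqcrh, the hinge protein near cytochrome c1, was the sole gene of the 9 in complex III whose groups did not overlap, against 13.7% of all genes on the lower side. It read 6.46 and 7.24 against 6.46 and 5.74, and there the inner arrays of both groups were the same to 2 decimals.

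In complex IV, cytochrome c oxidase, 11 of 13 members were below 0 and the median was -0.48, but the members were less alike than in the other complexes. The ubiquitous subunits kept the common order. Cox5a, which lies on the matrix side, read 5.0 and 6.41 against 5.42 and 3.97, a difference of -1.01 ± 0.70. Cox8a read 6.44 and 7.49 against 6.96 and 6.42, a difference of -0.27 ± 0.46, and Cox7a2 read 5.09 and 6.14 against 5.48 and 4.58, a difference of -0.58 ± 0.51.

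Cox7a2l, a paralogue of Cox7a2 that joins complexes III and IV in supercomplexes, stood apart from them. It read 5.96 and 6.07 on the wild type arrays and 6.15 and 5.90 on the knockout arrays, a range of 0.25 over the 4, with a difference of 0.011 ± 0.28 that was -0.040 under median scaling.

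In complex V, ATP synthase, 18 of 18 members were below 0, with Atp5s, Atp5sl and Atp5c1-ps counted by name only. The median of -0.39 and the median range of 1.12 were the smallest of the 5 complexes, and 12 of 18 had the common order. Atp5b, the catalytic beta subunit of the F1 head, read 6.51 and 7.15 against 6.78 and 6.05, a difference of -0.41 ± 0.41. Atp5c1, the gamma subunit of the rotating stalk, read 5.60 and 6.24 against 6.01 and 5.10, a difference of -0.36 ± 0.45. Atp5o, which joins the head to the outer stalk, read 5.82 and 6.58 against 6.01 and 5.21, a difference of -0.59 ± 0.44. Each of these was highest on wild type array 2 and lowest on knockout array 2. Atp5k, the membrane subunit e, read 5.18 and 6.28 against 5.62 and 4.53, a difference of -0.65 ± 0.56.

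Groups did not overlap for 2 of the 18 genes named Atp5, both lower on the knockout arrays, against 13.7% of all genes. Atp5d, the delta subunit of the F1 stalk, read 4.40 and 4.69 against 4.12 and 3.87, a difference of -0.55 ± 0.30 (adjusted p 0.969 in limma). Atp5s read -3.10 and -2.80 against -3.41 and -4.36, a difference of -0.93 ± 0.42 (adjusted p 0.864 in limma). On knockout array 2 it was not well above background, and the difference was -0.23 with normexp background correction.

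The 3 genes Atp5g1, Atp5g2 and Atp5g3 make the same mature c subunit of the proton-driven ring from different precursors. Their median range over the arrays was 0.67, beside 1.12 for complex V as a whole, and their median difference was -0.25, with 0.038 between the arrays of higher signal and -0.54 between those of lower signal. Atp5g1 read 5.31 and 4.80 against 4.91 and 4.68, a difference of -0.26 ± 0.32, and had its highest value on wild type array 1. Atp5g3 read 5.55 and 5.69 against 5.73 and 5.01, and Atp5g2 read 5.56 and 6.10 against 5.92 and 5.43, with differences of -0.25 ± 0.36 and -0.16 ± 0.36. Only Atp5g2 kept the common order.

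**Figure D2:**
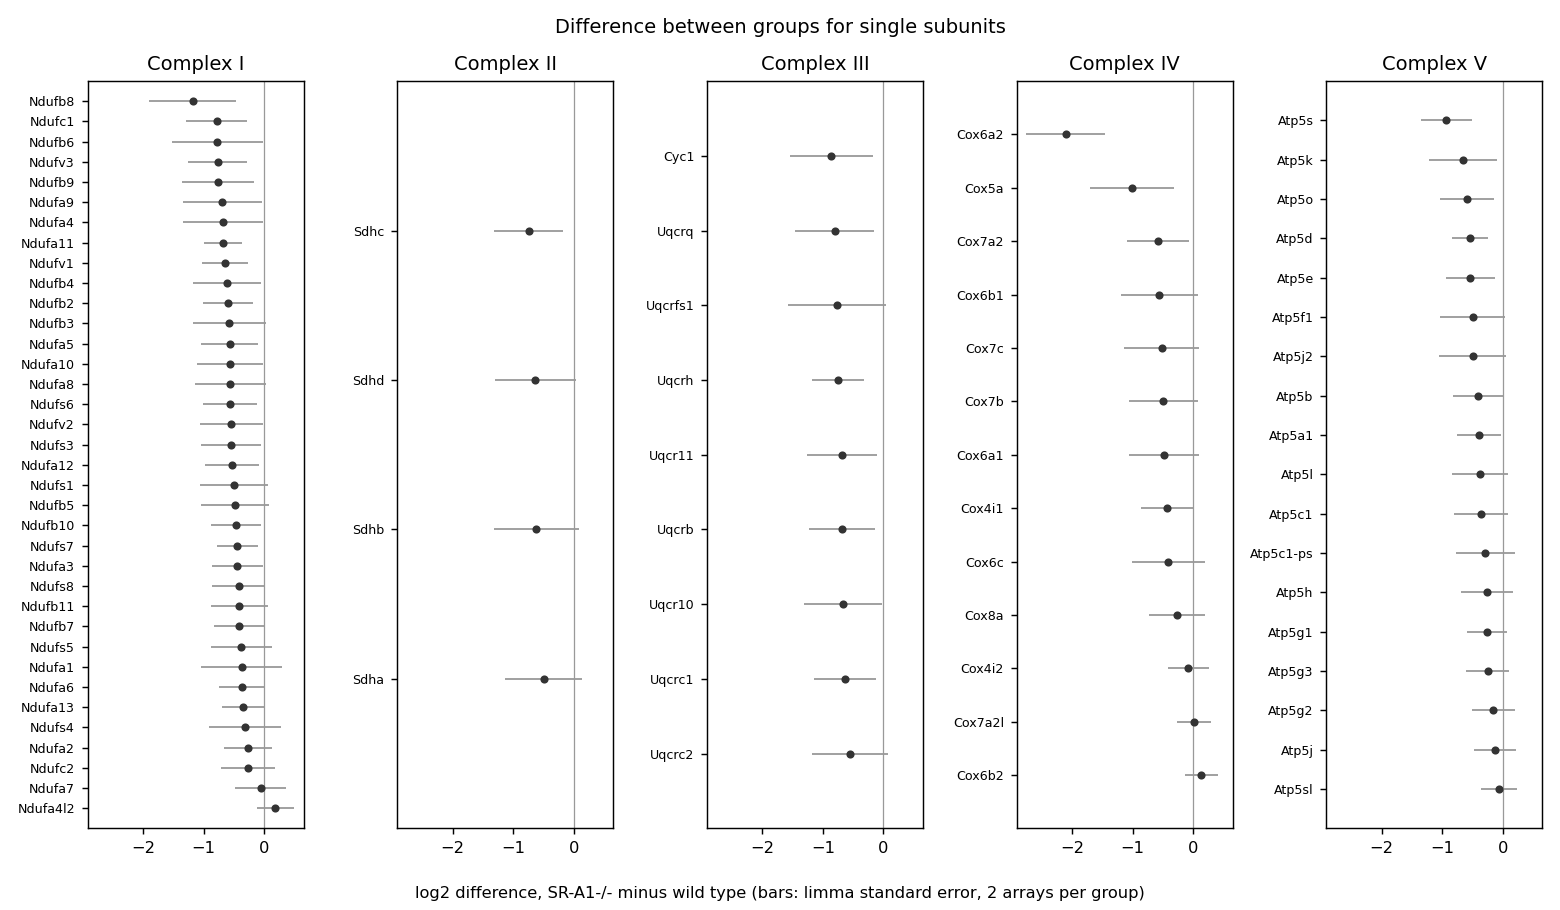
Difference between the group means, knockout label minus wild type label (log2, horizontal axis) for the tested members but 1, grouped by complex, with bars of 1 standard error from limma. Cox6a2 lies lowest at -2.10, and the 3 members above 0 are Ndufa4l2, Cox7a2l and Cox6b2.

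Promoters were read because the members moved together over the arrays. RefSeq (GRCm38.p6) gave the 250 bases before the start for 65 of the 81 members, and 5 motifs known from nuclear genes of mitochondria were searched on both strands. A gene with several promoters was counted if any of them held the letters. The NRF1 motif, GCGCA followed directly by its reverse complement TGCGC, is bound by nuclear respiratory factor 1. It was in 4 of the 65, or 6.15%, against 0.877% of the 27025 genes with promoters and 1.56% of the 12411 tested genes among them. The GABP motif CCGGAAG, an ETS site, was in 12, or 18.5%, against 7.83% and 13.0%. The 4 promoters with the NRF1 letters, which are in capitals, are shown as 100 bases each, 5′ to 3′ on the strand of the gene, since they span members with and without the common array order.
Ndufa11, chr17:56717657-56717756, plus strand: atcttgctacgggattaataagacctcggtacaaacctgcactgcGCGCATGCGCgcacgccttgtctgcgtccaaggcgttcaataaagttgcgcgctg
Cox6a1, chr5:115349066-115349165, minus strand: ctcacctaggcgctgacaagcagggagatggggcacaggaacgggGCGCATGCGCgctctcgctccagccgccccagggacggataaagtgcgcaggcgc
Atp5k, chr5:108434400-108434499, minus strand: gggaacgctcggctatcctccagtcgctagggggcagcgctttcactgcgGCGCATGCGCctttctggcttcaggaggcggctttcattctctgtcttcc
Atp5g2, chr15:102671048-102671147, minus strand: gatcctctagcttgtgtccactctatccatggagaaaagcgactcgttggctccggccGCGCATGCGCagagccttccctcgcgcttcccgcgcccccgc
In Ndufa11, Atp5k and Atp5g2 the 100 bases end within 6 bases of the start, and in Cox6a1 they end 108 bases before it. Ndufa11 was a member with groups that did not overlap, while the others had the common order, so the shared letters did not go with a single order.

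The GABP letters are shown in capitals, as they read on the strand of the gene, for a member of complex II, of complex III and of complex IV.
Sdhd, chr9:50603850-50603949, minus strand: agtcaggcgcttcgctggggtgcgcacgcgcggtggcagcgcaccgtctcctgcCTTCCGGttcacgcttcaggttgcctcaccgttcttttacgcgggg
Uqcrh, chr4:116075071-116075170, minus strand: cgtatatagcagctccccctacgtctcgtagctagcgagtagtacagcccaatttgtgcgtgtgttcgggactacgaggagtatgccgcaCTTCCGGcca
Cox6b1, chr7:30626115-30626214, minus strand: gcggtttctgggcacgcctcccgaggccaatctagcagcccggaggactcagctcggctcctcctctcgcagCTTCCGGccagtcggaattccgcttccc
Sdhd and Cox6b1 had the common order and Uqcrh did not. Uqcr11, the other complex III member with these letters, also had the common order and is not shown. These promoters are examples, so no link of the letters to the order is read from them. The motif TNAAGGTCA of the oestrogen-related receptors was in 2 members, or 3.08%, against 1.30% of all genes and 0.911% of tested genes. The YY1 motif AAGATGGCG was in 2, or 3.08%, against 0.711% and 1.16%. The SP1 motif GGGCGG was in 24, or 36.9%, against 35.4% and 56.9%. A match says only that the letters are present in the window.

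Among the members, isoforms of restricted tissues departed from the common array order, unlike Cox7a1 and Cox8b, which the rule left out. Cox6a2, the heart and skeletal muscle form of subunit 6A, read 5.12 and 3.32 on the wild type arrays and 1.89 and 2.34 on the knockout arrays. Both wild type values lay above both knockout values, wild type array 1 was highest, and the order was not that of the other subunits. The difference of -2.10 ± 0.65 was the lowest of all 81 members, with an unadjusted p of 0.0232 and an adjusted p of 0.666 in limma. The probe lies on chromosome 7 at 135349160 to 135349219 (mm9, minus strand). The difference was -1.21 without wild type array 1, and -3.00 with an adjusted p of 0.0168 without wild type array 2, where the lone array was assumed to vary like the other group.

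The 16 skeletal muscle markers were all tested and did not move as one. Of them 11 were below 0. In 8 of the 16, Myh4 and Tnnt3 among them, the knockout arrays were lower without overlap, against 13.7% of all genes. Myh4, a fast myosin, read 8.36 and 6.84 against 5.06 and 5.58, in the array order of Cox6a2. The other 5, Mb, Myh1, Tnnc1, Myh2 and Myh7, were above 0. In 3 of the 16 the knockout arrays were higher without overlap, against 16.1% of all genes. Mb, myoglobin, read 0.16 and -0.10 against 2.81 and 3.02, a difference of 2.89 ± 0.29 with an adjusted p of 0.141 in limma, opposite to Cox6a2. The centred median of the 16 was 1.76 and -0.27 on the wild type arrays against -1.31 and -0.36, and their summed signal, in units of the array's 75th percentile, was 1632 and 504 on the wild type arrays and 199 and 322 on the knockout arrays. Of these 16 markers 15 were well above background on all 4 arrays. Their part in the Cox6a2 difference was not tested. Fewer cells of a type and less RNA per cell cannot be told apart in bulk tissue.

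Ndufa4l2, a relative of Ndufa4 known to rise in hypoxia and found in pericytes, ran opposite to its partner. It read 2.35 and 1.98 against 2.25 and 2.46, highest on knockout array 2, with a difference of 0.19 ± 0.30. Ndufa4 read 4.19 and 5.40 against 4.83 and 3.39, a difference of -0.68 ± 0.66, in the common order. Cox4i2, the lung and pericyte form of subunit 4, read -0.75 and -0.82 against -1.17 and -0.55, a difference of -0.081 ± 0.34, and was also highest on knockout array 2. Its partner Cox4i1 read 6.34 and 7.06 against 6.65 and 5.88, a difference of -0.43 ± 0.43.

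Cox6b2, known from testis, was a dim gene that hardly varied, at -0.048 and -0.15 against 0.10 and -0.034, a difference of 0.13 ± 0.28. Its groups did not overlap, with both knockout values the higher. Its partner Cox6b1 read 1.89 and 3.38 against 2.60 and 1.55, a difference of -0.56 ± 0.64, and Cox6a1, the partner of Cox6a2, read 7.30 and 8.46 against 7.96 and 6.84, a difference of -0.48 ± 0.58. Both partners had the common order.

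Within each array the log2 signal of an isoform was set against that of its partner, and only the change of this value between arrays is read, since probes differ in brightness. For Cox6a2 and Cox6a1 it was -2.18 and -5.14 on the wild type arrays and -6.07 and -4.50 on the knockout arrays, a mean difference of -1.62. For Ndufa4l2 and Ndufa4 it was -1.84 and -3.42 against -2.59 and -0.93, a mean difference of 0.87. Neither pair separated the groups completely. For Cox6b2 and Cox6b1 it was -1.94 and -3.54 against -2.50 and -1.59, and for Cox4i2 and Cox4i1 -7.08 and -7.88 against -7.83 and -6.44, with mean differences of 0.69 and 0.35. The exact permutation test over the 4 arrays, two-sided, gave p = 0.667 for each of the 4 pairs, and 0.667 after adjustment over them. This design cannot go below 0.333. Leaving out an array moved the 4 differences to between -3.10 and -0.15, 0.042 and 1.70, -0.11 and 1.49, and -0.35 and 1.04, in the order given.

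**Figure D3:**
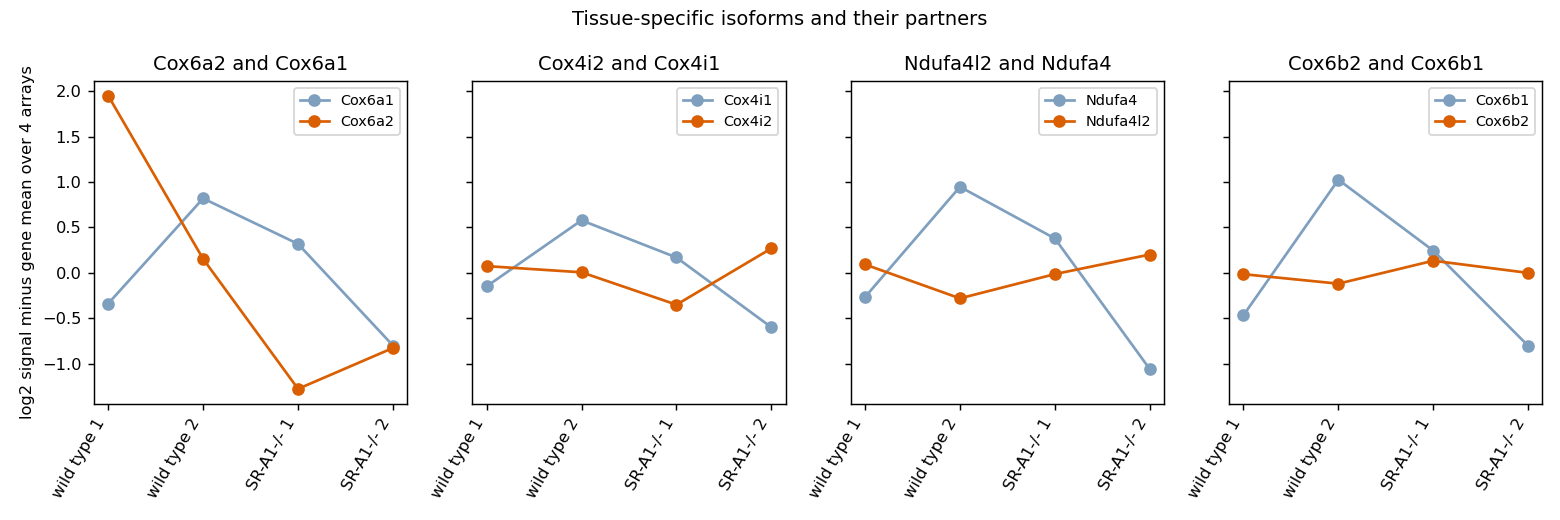
Log2 signal of each restricted isoform and its ubiquitous partner, centred on the gene's own mean (vertical axis), by array (horizontal axis), with a panel for each of the 4 pairs. The partners peak on wild type array 2, whereas Cox6a2 peaks on wild type array 1, and Ndufa4l2 and Cox4i2 on knockout array 2.

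Cox7a1 and Cox8b, isoforms of heart, skeletal muscle and brown fat that the rule left out, varied more than any ubiquitous subunit described here. Cox7a1 read 4.21 and 6.40 on the wild type arrays and 4.29 and 1.39 on the knockout arrays, a difference of -2.47 ± 1.19. Cox8b read 4.08 and 7.28 against 5.72 and 1.55, a difference of -2.04 ± 1.69. For both, wild type array 2 was highest and knockout array 2 lowest, and the groups overlapped.

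Brown adipocyte markers followed the array order of the subunits in part. Of 12 such markers 11 were tested and 8 were well above background on all arrays. The common order was found in 7 of the 11, against 10.9% of all tested genes, and not in Dio2, Prdm16, Ebf2 and Ppargc1a. Groups did not overlap in 2 that were lower on the knockout arrays, Dio2 and Prdm16, against 13.7% of all genes. In 1, Ebf2, both knockout arrays were higher, against 16.1%. Ppargc1a was lowest on wild type array 1. Cox7a1 and Cox8b, themselves subunits, belong to this list and are among the 7. They also enter its sums, and were its brightest genes on wild type array 1. Their centred median was -0.49 and 2.33 on the wild type arrays and 0.43 and -2.52 on the knockout arrays, and their summed signal was 43.5 and 515 on the wild type arrays against 174 and 11.2 on the knockout arrays. Ucp1, the uncoupling protein that defines brown fat, read -6.30 and 7.09 against 5.31 and -6.62, and was not well above background on wild type array 1 and knockout array 2. Nor was Elovl3, so for both genes the order of those arrays is not resolved, though both count among the 7. The arrays with Ucp1 were thus also those in which the respiratory chain genes were high. White adipocyte markers had summed signals of 531 and 881 against 853 and 41.8, and 8 of 13 had that order. The part of fat in the subunit values was not tested.

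The common order was found in 1 of 13 smooth muscle markers, 1 of 8 pericyte markers, 2 of 10 endothelial markers, and 0 of 11 macrophage and 0 of 10 fibroblast markers. Smooth muscle markers had summed signals of 2201 and 1597 on the wild type arrays against 1243 and 1499, with a median difference of -0.50. All 13 were below 0, and in 8 the knockout arrays were lower without overlap, against 13.7% of all genes. Macrophage markers had sums of 168 and 346 against 274 and 282, with a median of 1.15. That median was 0.038 between the arrays of higher signal and 1.53 between those of lower signal. Endothelial, fibroblast and pericyte markers had median differences of 0.18, 0.086 and -0.015. Their part in the subunit values was not tested.

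The subunits encoded by mitochondrial DNA did not follow the nuclear ones. All 11 tested were below 0, ND6 by only -0.0074, with a median of -0.41. In 9 of them the groups did not overlap, against 13.7% of all genes. Such a separation was not particular to them, as it was also found in 8 of the 13 smooth muscle markers. The common order of the nuclear subunits was found in 0 of the 11. Their centred median was 0.20 and 0.22 on the wild type arrays and -0.30 and -0.19 on the knockout arrays. The difference was of like size at both signal levels, -0.49 and -0.40, and with each array left out in turn the median stayed between -0.48 and -0.39. The probe named COX1, the catalytic core of complex IV, read 7.98 and 8.02 on the wild type arrays and 6.44 and 6.43 on the knockout arrays, a difference of -1.56 ± 0.27 with an unadjusted p of 0.00228 and an adjusted p of 0.297 in limma. Mitochondrial transcripts are cut from long shared precursors, so these genes are not separate measurements.

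**Figure D4:**
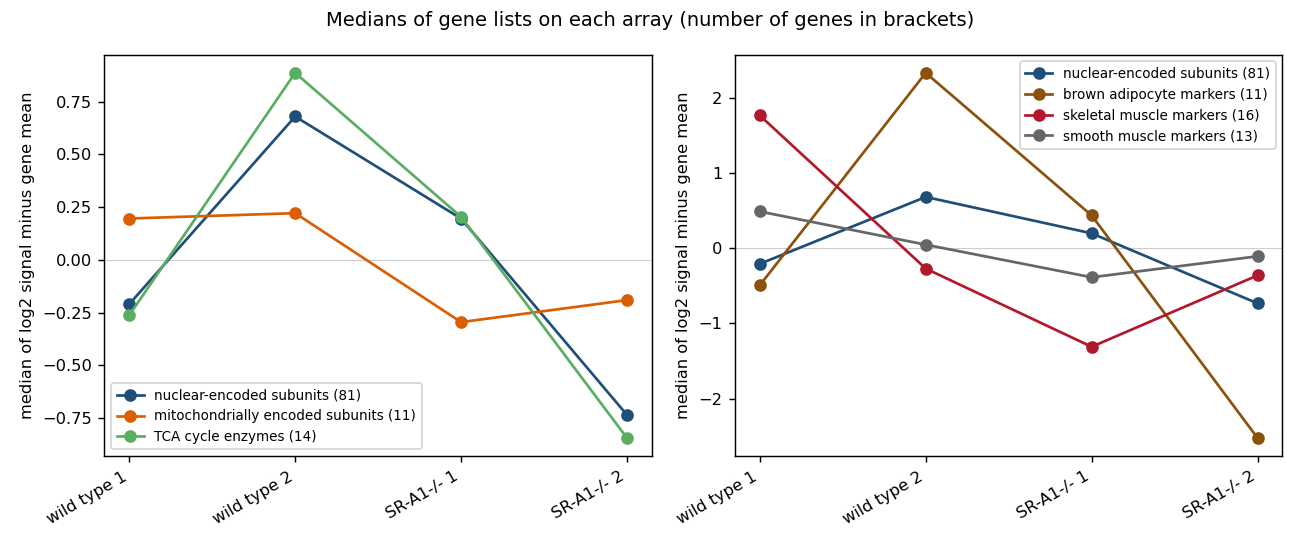
Median log2 value over each gene list, each gene centred on its own mean (vertical axis), by array (horizontal axis), with nuclear subunits, mitochondrially encoded subunits and citric acid cycle (TCA) genes on the left, and nuclear subunits with brown adipocyte, skeletal muscle and smooth muscle markers on the right, on another scale. The medians of nuclear subunits and of brown adipocyte markers, which include Cox7a1 and Cox8b, share an order. Mitochondrially encoded subunits lie at 0.20 and 0.22 on the wild type arrays and -0.30 and -0.19 on the knockout arrays.

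Other genes of mitochondrial respiration were read from lists in the same way, and 0 genes of these lists passed an adjusted p of 0.05 in limma. Those with an unadjusted p under 0.05 were Idh3b and Perm1 on the lower side, where 2.45% of all genes stood, and Adm on the higher side, where 3.84% stood. Of 14 citric acid cycle genes 13 were below 0, with a median of -0.64, and 12 had the common order. Idh3b, the beta subunit of the NAD-dependent isocitrate dehydrogenase, read 3.15 and 3.80 against 2.65 and 2.37, and its groups did not overlap, with a difference of -0.96 ± 0.35 and an unadjusted p of 0.0415. Cs, citrate synthase, read 5.45 and 6.60 against 5.81 and 4.69, a difference of -0.78, in the common order.

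Assembly factors, which help to build the complexes without being part of them, had a smaller median difference than the subunits themselves. Of 44 tested, 37 were below 0, with a median of -0.19, and 27 had the common order. Of 17 electron carriers and outside inputs 15 were below 0, with a median of -0.34, and of 21 mitochondrial carriers and import genes 20 were, with a median of -0.31. Among 15 regulators of mitochondrial biogenesis 12 were below 0, with a median of -0.30.

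Perm1, a muscle regulator of mitochondrial genes that works with the PGC-1 coactivators, had the lowest difference among those regulators. It read -0.83 and -1.54 on the wild type arrays and -3.60 and -4.36 on the knockout arrays, a difference of -2.79 ± 0.43 with an unadjusted p of 0.0013 and an adjusted p of 0.254 in limma, and on knockout array 2 it was not well above background. With normexp background correction the difference was -0.97. The adjusted p was 0.0174 without wild type array 2, where wild type array 1 alone gives no spread and that of the knockout arrays was used, and 0.0615 to 0.857 without each of the others. Of 19 genes linked to hypoxia, Hif1a and Epas1 among them, 17 were below 0, with a median of -0.27. Adm, the vasodilator adrenomedullin, ran the other way at 0.050 and 0.052 against 1.20 and 2.63, a difference of 1.87 ± 0.53 with an unadjusted p of 0.0172 and an adjusted p of 0.610 in limma, and its groups did not overlap. Of 6 genes of uncoupling and proton leak 5 were above 0, with a median of 0.31.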

How the data were processed

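Total RNA of abdominal aorta was labelled with Cy3 and hybridised to Agilent mouse arrays of 62976 spots, 2 arrays in each group. Per the file headers, the deposited processed signal is an intensity made with Feature Extraction 12.0.3.1, background-subtracted and detrended, and not normalised between arrays. The submitters' processing notes name version 10.7 and limma. The other deposited columns used are flags for control, outlier and well-above-background spots, per the file headers. The value table deposited by the authors is on a log2 scale with almost equal medians, 4.31 to 4.32, and its steps are not given in the sources used here. The headers place probes on mm9.

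From the log2 signal of the 56605 probes other than controls, the 75th percentile of each array was subtracted. Outlier spots, 74 to 102 an array, were left out, 0 were saturated, and repeated spots were averaged. Between 57.6% and 62.6% of probes were called well above background. Precision is limited by the small number of arrays. Probes with that call on 2 or more of the 4 arrays were kept, and the brightest probe stood for a gene name. Of the 81 members 80 were well above background on all 4 arrays, and 1 on 3. Several probes were tested in 30 members, and 25 of those had all probes below 0. The group comparison used limma 3.58.1 (lmFit, eBayes) under R 4.3.3 with version 1.17.8 of data.table, two-sided, with Benjamini-Hochberg adjustment over all genes. The fit was tested on simulated data. Motifs and plots were made with Python 3.11.15, pandas 2.3.3 and matplotlib 3.10.9.

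The alternatives were other normalisations, background correction, filters, probe summaries and variance models, array weights, the deposited values, signal level as a block, and each array left out. The members and lists were chosen with earlier results of these data known. Named genes were all isoforms and partners, the extremes of each complex, core subunits, members at an unadjusted p under 0.05, and up to 3 genes of a pathway list with the smallest p. Members named because their groups did not overlap, or for their array order, and marker genes, were chosen after their values were seen. The values of 1 member are not reported here, though it is counted.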

Additional observations from a re-analysis of the deposited data

How the results depend on the processing

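No paired analysis was possible because wild type and knockout samples carry different numbers in the labels and share no stated source. Over the alternatives that kept all 4 arrays, the median difference of all members lay between -0.57 and -0.45, and that of complexes I to V between -0.59 and -0.44, -0.69 and -0.56, -0.74 and -0.60, -0.53 and -0.39, and -0.44 and -0.27. The median of the mitochondrially encoded subunits, run under the same alternatives after the data were seen, lay between -0.46 and -0.32. The common array order was found in 64 to 71 members over the scalings, and in 61 with the mean of a gene's probes. Leaving out 1 array gave -0.98 to -0.040 for all members, -0.98 to -0.040 for complex I, -1.36 to 0.14 for complex II, -1.28 to -0.11 for complex III, -1.06 to 0.081 for complex IV and -0.79 to 0.021 for complex V.

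The count of genes past an adjusted p of 0.05 in limma, 0 of 22498, was 8 with quantile normalisation, 7 with median scaling, 8 with cyclic loess, 22 with normexp, 8 without a filter, 5 with an intensity trend, 2 with array weights and 8 with the deposited values, and 1416 at an unadjusted p under 0.05. Leaving out 1 array gave 0 to 371, with 260 without wild type array 1 and 371 without wild type array 2. Among members the count was 1 at an unadjusted p, and 0 to 1 when an array was left out. The cause was not tested. Ndufa7 turned to 0.067 with quantile normalisation and Cox7a2l to -0.040 with median scaling. With all 4 arrays kept, values also moved by over 1.5 times in Ndufb8 (-1.23 to -0.67), Ndufs1 (-0.56 to -0.30), Sdha (-0.55 to -0.31), Cox8a (-0.34 to -0.17), Cox6b2 (0.082 to 0.13), Atp5c1 (-0.42 to -0.23), Atp5g1 (-0.37 to -0.15), Atp5g2 (-0.21 to -0.037), Atp5g3 (-0.31 to -0.11), Atp5s (-1.01 to -0.23), Cox4i2 (-0.13 to -0.072) and Perm1 (-2.86 to -0.97). The same held for Atp5j (-0.18 to -0.051) and Atp5sl (-0.14 to -0.012).

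Single genes changed sign when an array was left out: Atp5c1 spanned -0.82 to 0.090, Atp5g2 -0.43 to 0.12, Atp5g3 -0.62 to 0.11, Atp5j -0.45 to 0.20, Atp5sl -0.27 to 0.13, Cox4i2 -0.39 to 0.23, Cox6a1 -1.06 to 0.098, Cox6b1 -1.31 to 0.19, Cox7a2l -0.11 to 0.14, Cox7b -1.10 to 0.12 and Cox8a -0.79 to 0.26. So did Cox8b, with -4.13 to 0.042, Ndufa4 -1.40 to 0.038, Ndufa7 -0.44 to 0.33, Ndufs1 -1.10 to 0.089, Ndufs8 -0.87 to 0.027, Sdha -1.17 to 0.18, Sdhb -1.38 to 0.15, Sdhd -1.41 to 0.13, Uqcrc2 -1.25 to 0.16 and Uqcrfs1 -1.66 to 0.11. The isoform ratios spanned -0.35 to 1.04 for Cox4i2, 0.042 to 1.70 for Ndufa4l2, -3.10 to -0.15 for Cox6a2 and -0.11 to 1.49 for Cox6b2.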
